A study of Mus musculus with 15 samples.

Results

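The genes described here are 46 mouse genes that hypoxia-inducible factors (HIFs) switch on or that encode the enzymes of glycolysis, measured in mammospheres treated with 4 signalling inhibitors. They are 14 glycolytic enzymes and 32 other HIF genes, namely HIF subunits, oxygen sensors and HIF targets. Each gene was represented by the probe set annotated to it alone that had the highest mean log2 signal over the 15 arrays. That gave a probe set to 42 of the 46, of 18193 genes with one on the array. Gpi1, Eno1 and Gapdh, all enzymes of glycolysis, and the mitophagy receptor Bnip3l had none. Of the 42 genes, 40 exceeded the array median on 3 or more arrays and were among the 11458 genes tested. Slc2a3, a neuronal-type glucose transporter, and the lactate exporter Slc16a3 did not, with signals of 6.1 to 87.7 and 14.2 to 86, and were not tested. The 40 genes tested comprise 11 glycolytic enzymes and 29 others, and 35 of the 40 lay above the array median on every array.

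The cells came from mammary tumours of FVB/N mice carrying MMTV-PyMT, a transgene in which the mouse mammary tumour virus promoter drives the polyoma middle T oncogene. They grew unattached, as spheres called mammospheres, in serum-free medium with EGF, FGF and B27 for 12 days, and an inhibitor or vehicle was present for the last 2 days. The groups, of 3 biological replicates each, received DAPT, U0126, TAE226, PP2 or vehicle. DAPT inhibits γ-secretase and with it Notch, U0126 inhibits MEK1, TAE226 inhibits FAK and PP2 inhibits Src. All groups share the transgene, the strain and the culture conditions, and the sources used here give no doses. The study's title concerns Shp2 and senescence in these tumours, and the comparisons ask which RNA levels differ under each inhibitor. The labels do not say whether the replicates came from separate mice or cultures, so p-values here cover only sample-to-sample spread, which may be technical.

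HIFs are pairs of an oxygen-sensitive α-subunit, HIF1A or EPAS1, and a stable partner, ARNT. In oxygenated cells, prolyl hydroxylases of the EGLN family mark the α-subunit for destruction by the VHL ubiquitin ligase. When oxygen is short the α-subunit persists and binds the short DNA motif ACGTG or GCGTG near its target genes. These encode glycolytic enzymes, angiogenic factors, acid-exporting enzymes, collagen-modifying enzymes and the hydroxylase EGLN3 itself. Growth factor signalling can also raise HIF1A translation and glycolysis in oxygenated cells. Spheres of tumour cells can hold an oxygen gradient, but oxygen was not measured in these samples.

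Promoter sequence was set beside the expression values, because the genes were listed as HIF targets and their promoters show where the factor's core motif lies. RefSeq promoter entries of build GRCm38.p6, running from 250 bases before to 50 bases after the start of transcription, were matched to 39 of the 46 genes by symbol. Both strands were searched, and a gene counted when any of its entries held the motif. ACGTG was in the promoters of 27 of the 39 (69.2%), against 29.6% of 9307 genes tested on the arrays and 21.8% of all 27025 genes with an entry. Either ACGTG or GCGTG was in 36 of the 39 (92.3%), against 68.5% of the genes tested and 46.7% of all. Counted by entry, ACGTG was in 30 of the 57 entries of these genes (52.6%), against 19.6% of all 32851 entries. Either motif was in 80.7% of the 57, against 43.8%. ACGTG was in 9 of 14 glycolytic enzymes (64.3%) and in 18 of 25 other HIF genes (72.0%). The longer motif CACGTG, known as the E-box and read by MYC and BHLHE40, overlaps ACGTG on both strands and was in 5 of the 39 (12.8%), against 11.9% of the genes tested. A match is a description of the letters and not of binding, which was not measured. No promoter entry was matched to Lox, Bnip3l, Bhlhe40, Epas1, Slc2a3, Ndrg1 or Plod2.

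The promoters below are those of Car9, Ankrd37 and Bnip3, which were lower with several inhibitors, and of Pgk1 and Ldha, enzymes of the lower part of glycolysis that are textbook HIF targets. Each is written 5′ to 3′ on the gene's own strand, with ACGTG and GCGTG, read on either strand, in capitals. Car9 (chr4:43506776-43507075, plus strand) holds 1 match, an ACGTG that begins 18 bases before the start. Ankrd37 (chr8:45999801-46000100, minus strand) holds 4 matches, 2 of them ACGTG. Bnip3 (chr7:138909457-138909756, minus strand) holds 5, 2 of them ACGTG. Pgk1 (chrX:106186850-106187149, plus strand) holds 2, both ACGTG. Ldha (chr7:46845554-46845853, plus strand) holds 7, 5 of them ACGTG. An E-box counts once on each strand in these numbers.
Car9: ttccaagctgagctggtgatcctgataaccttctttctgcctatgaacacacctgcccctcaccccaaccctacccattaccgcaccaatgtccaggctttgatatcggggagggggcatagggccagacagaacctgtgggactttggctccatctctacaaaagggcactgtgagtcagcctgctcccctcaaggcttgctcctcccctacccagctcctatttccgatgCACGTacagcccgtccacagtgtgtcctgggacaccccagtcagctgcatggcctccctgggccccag
Ankrd37: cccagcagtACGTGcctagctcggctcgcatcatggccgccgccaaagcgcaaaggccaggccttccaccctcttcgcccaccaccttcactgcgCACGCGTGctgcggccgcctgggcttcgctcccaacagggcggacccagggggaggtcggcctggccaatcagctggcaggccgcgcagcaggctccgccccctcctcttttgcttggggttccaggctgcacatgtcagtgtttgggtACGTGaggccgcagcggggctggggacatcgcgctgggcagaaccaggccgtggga
Bnip3: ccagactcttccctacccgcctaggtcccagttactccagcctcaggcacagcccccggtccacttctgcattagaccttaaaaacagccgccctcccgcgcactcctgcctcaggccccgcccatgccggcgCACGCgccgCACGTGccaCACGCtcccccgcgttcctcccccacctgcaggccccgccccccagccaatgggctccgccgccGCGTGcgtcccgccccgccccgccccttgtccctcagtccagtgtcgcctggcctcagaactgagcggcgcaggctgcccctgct
Pgk1: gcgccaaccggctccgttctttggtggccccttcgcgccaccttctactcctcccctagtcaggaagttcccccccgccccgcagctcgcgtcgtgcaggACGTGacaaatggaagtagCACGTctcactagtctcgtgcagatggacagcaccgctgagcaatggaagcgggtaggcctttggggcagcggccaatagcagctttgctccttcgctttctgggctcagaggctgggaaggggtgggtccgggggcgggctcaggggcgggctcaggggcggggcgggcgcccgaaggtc
Ldha: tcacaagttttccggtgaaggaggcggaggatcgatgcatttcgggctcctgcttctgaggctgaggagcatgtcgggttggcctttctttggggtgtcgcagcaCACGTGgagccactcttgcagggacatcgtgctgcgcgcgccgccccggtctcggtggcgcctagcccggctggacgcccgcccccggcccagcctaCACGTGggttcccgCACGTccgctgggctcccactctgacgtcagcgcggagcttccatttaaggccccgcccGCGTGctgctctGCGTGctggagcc

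The arrays were set to a common scale by the submitters' MAS5 processing, with a trimmed mean signal of 500 on each, and their median signals ran from 66 to 91. The samples were listed by group, and the labels used here give no order in which the arrays were processed. An order that followed the groups could not be told apart from them. In bulk samples such as these, fewer cells of a type and less RNA per cell cannot be told apart. The labelled epithelial tumour cells had all 6 epithelial markers past the filter on dim genes, with summed signals of 61057 to 63188 with DAPT, 68468 to 78207 with U0126, 67805 to 76179 with TAE226 and 66299 to 69135 with PP2, against 67489 to 69848 with vehicle. The DAPT sums lay below vehicle. Of the 6, 2 were called higher and 2 lower with DAPT, 2 higher and 2 lower with U0126, 1 higher and 1 lower with TAE226, and 0 higher and 2 lower with PP2. Krt5, a keratin of basal and myoepithelial cells, had signals of 1236 to 1503 with DAPT, 575 to 620 with U0126, 483 to 516 with TAE226 and 280 to 330 with PP2, against 652 to 732 with vehicle. Its log2 fold changes were 0.95 with DAPT (adjusted p = 2.32e-07), −0.22 with U0126 (adjusted p = 0.0494, and up to 0.162 when 1 sample was left out), −0.49 with TAE226 (adjusted p = 0.000314) and −1.20 with PP2 (adjusted p = 4.61e-09). Of 6 leukocyte markers with a probe set 3 passed the filter, and Ptprc, Itgam and Cd3e were dim. Their summed signals were 250 to 291 with DAPT, 263 to 329 with U0126, 280 to 363 with TAE226 and 239 to 390 with PP2, against 215 to 281 with vehicle. The macrophage marker Adgre1 was the 1 leukocyte marker called against vehicle, with signals of 123, 123 and 86.4 with PP2, against 62.6, 57.4 and 51.4 with vehicle, where it was dim, so it was at least 1.49-fold higher with PP2 (adjusted p = 0.00679). The part of these markers in the results of any inhibitor was not tested. The endothelial markers Pecam1, Cdh5 and Tek were dim, as were Col1a1, Pdgfra, Pdgfrb, Dcn and Adipoq of fibroblasts and adipocytes. The endothelial marker Kdr and the fibroblast marker Col1a2 passed the filter, with signals of 32.2 to 118 and 31.2 to 105 over all arrays. Neither was called against vehicle. The ratio of the 3′ to the 5′ actin control, a sign of RNA integrity, was 1.35 ± 0.071 with DAPT, 1.28 ± 0.067 with U0126, 1.33 ± 0.076 with TAE226 and 1.57 ± 0.036 with PP2, against 1.42 ± 0.058 with vehicle (SD, n = 3 each). The part of that ratio in the results below was not tested.

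Most of the 40 genes were lower with TAE226, PP2 and DAPT than with vehicle, while with U0126 the set was split. With TAE226, 33 were lower and 1 was higher by limma's test (adjusted p under 0.05, Benjamini-Hochberg over 11458 genes), where 15.9% of all genes tested were lower and 15.0% higher. With PP2, 29 were lower and 3 higher, where 26.9% and 25.9% of all genes were. With DAPT, 25 were lower and 2 higher, against 17.5% and 16.8% of all genes. With U0126, 13 were lower and 5 higher, against 21.3% and 19.4% of all genes. The median log2 fold change of the 40 genes was −0.35 with DAPT, −0.03 with U0126, −0.60 with TAE226 and −0.64 with PP2, while that of all genes lay between 0.00 and 0.02. All 4 comparisons share the vehicle arrays, so their counts are not independent of each other.

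Called genes that were at least 2-fold lower numbered 7 with DAPT (2.18% of all genes), 2 with U0126 (2.89%), 12 with TAE226 (1.30%) and 17 with PP2 (5.31%). The 1 gene called at least 2-fold higher was Lox with U0126, where 2.76% of all genes were. The 3 arrays of an inhibitor lay wholly on one side of the 3 vehicle arrays for 31 genes with DAPT (46.4% of all genes), 21 with U0126 (48.1%), 35 with TAE226 (43.1%) and 33 with PP2 (58.9%). Over the 5 groups together, 39 of the 40 genes passed limma's F-test, as did 72.9% of all genes, and Pfkfb4, a regulator of phosphofructokinase, did not (adjusted p = 0.101). PP2 had the lowest mean for 21 of the 40 genes and TAE226 for 18, while PP2 had it for 28.3% and TAE226 for 10.6% of all genes. U0126 had the highest mean for 18 genes and vehicle for 17, against 23.5% and 19.3% of all genes.

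**Figure D1:**
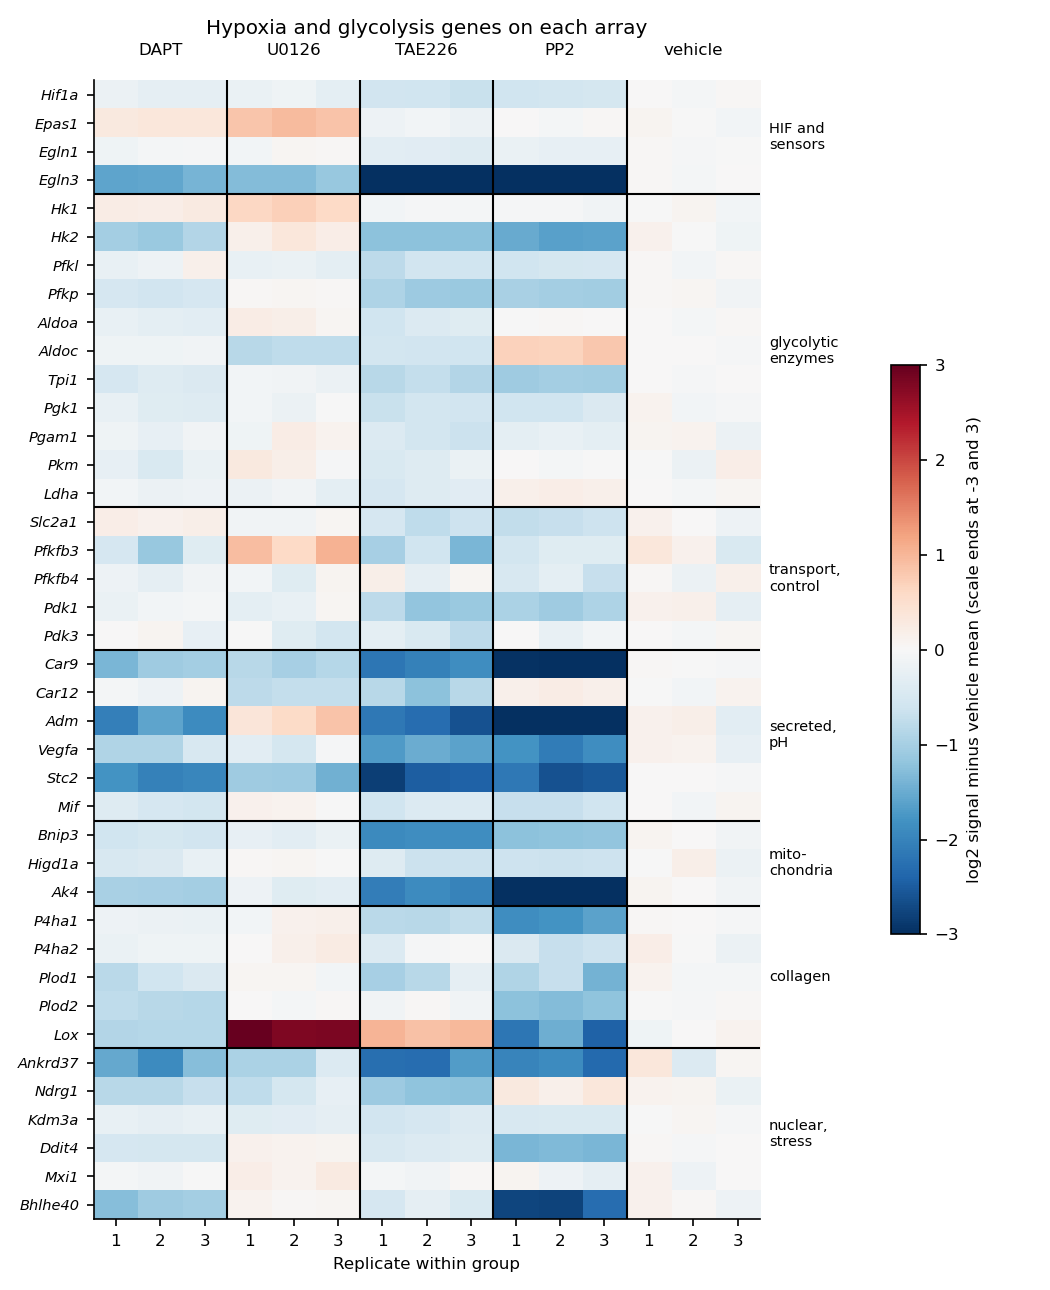
Heat map of the 40 genes tested (rows, grouped by role) on the 15 arrays (columns, grouped by treatment with vehicle last), coloured by log2 signal minus the vehicle mean on a scale of −3 to 3. TAE226 and PP2 columns are mostly on the low side, with 33 and 29 of the 40 genes called lower, and U0126 columns are mixed, with 13 called lower and 5 higher.

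Lower calls outnumbered higher ones with each inhibitor under both other scalings, and the higher calls of Epas1 and Hk1 with DAPT, Hk2 with U0126, and Ldha and Ndrg1 with PP2 ended under one of them. When each array was centred on its own median log2 signal, the median of all genes moved to −0.12 with DAPT, −0.08 with U0126, −0.24 with TAE226 and −0.20 with PP2, and changes are relative to those shifts. Of the 40 genes, 26 were then lower and 0 higher with DAPT, where 21.3% of all genes were lower and 6.0% higher. With U0126, 14 were lower and 4 higher, where 21.2% and 10.5% of all genes were. With TAE226, 38 were lower and 1 higher, where 37.2% and 3.69% were, and with PP2 32 were lower and 1 higher, where 38.1% and 10.5% were. After quantile normalization 24 were lower and 3 higher with DAPT, 13 and 5 with U0126, 33 and 1 with TAE226, and 29 and 3 with PP2. Of all genes, 17.8% were then lower and 15.7% higher with DAPT, and 21.1% and 19.1% with U0126. With TAE226 these shares were 16.9% and 13.5%, and with PP2 28.1% and 24.4%.

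The medians of glycolytic enzymes were nearer to 0 than those of the other HIF genes with DAPT and PP2, and close to them with TAE226 and U0126. Of the 11 enzymes tested, 10 were lower with TAE226 (median log2 fold change −0.57), 6 lower and 2 higher with PP2 (−0.27), 6 lower and 1 higher with DAPT (−0.27), and 3 lower and 2 higher with U0126 (0.04). Of the 29 other HIF genes, 23 were lower and 1 higher with TAE226 (−0.64), 23 lower and 1 higher with PP2 (−0.99), 19 lower and 1 higher with DAPT (−0.52), and 10 lower and 3 higher with U0126 (−0.05). Of all genes tested, 15.9% were lower and 15.0% higher with TAE226, and 26.9% and 25.9% with PP2. These shares were 17.5% and 16.8% with DAPT, and 21.3% and 19.4% with U0126. With U0126 the shares of the enzymes, 27.3% lower and 18.2% higher, were near those of all genes. The difference between the classes was not tested. After centring on array medians the class medians were −0.82 and −0.89 with TAE226, and −0.49 and −1.21 with PP2, with the enzymes first in each pair.

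**Figure D2:**
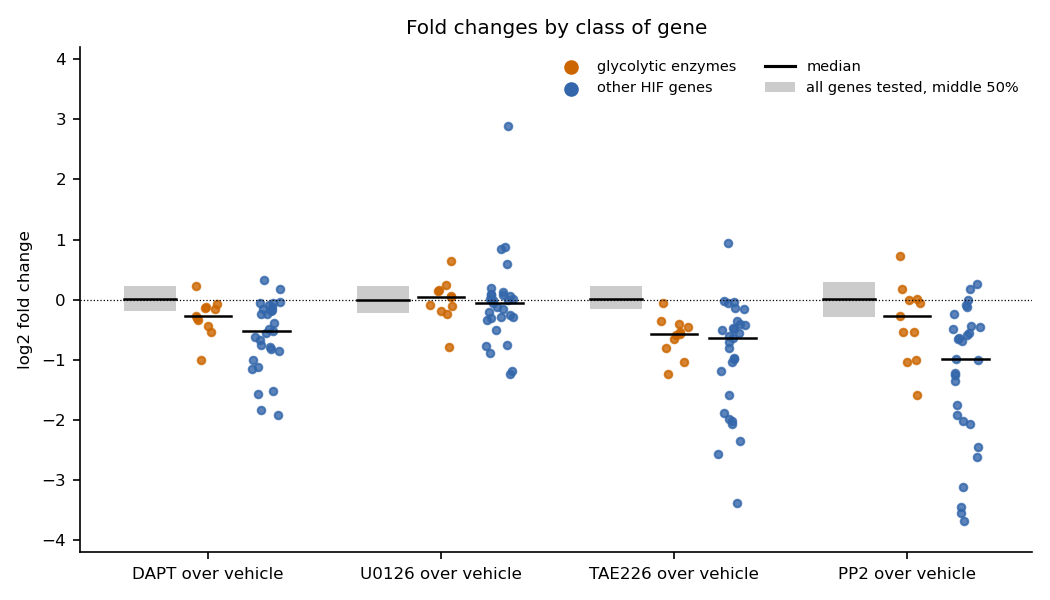
Log2 fold change against vehicle (vertical axis) of each gene (dots), split into glycolytic enzymes and other HIF genes, for each inhibitor, with class medians as black lines and the middle 50% of all genes tested as a grey band. With TAE226 the class medians lie at −0.57 and −0.64, below the medians of all genes, and with U0126 at 0.04 and −0.05.

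Of the 4 HIF subunits and oxygen sensors tested, Egln3, the prolyl hydroxylase that HIF itself induces, was lower with all 4 inhibitors. Egln3 signals were 875, 884 and 1003 with DAPT, 1068, 1071 and 1184 with U0126, 256, 219 and 283 with TAE226 and 183, 263 and 183 with PP2, against 2702, 2519 and 2646 with vehicle. Vehicle arrays were highest, U0126 arrays came next, DAPT arrays below them, and TAE226 and PP2 arrays were lowest and overlapped each other. Egln3 fell 2.85-fold with DAPT (log2 −1.51, SE 0.12, adjusted p = 7.31e-08), 2.37-fold with U0126 (log2 −1.24, SE 0.12, adjusted p = 4.79e-07), 10.4-fold with TAE226 (log2 −3.38, SE 0.12, adjusted p = 1.84e-11) and 12.7-fold with PP2 (log2 −3.67, SE 0.12, adjusted p = 6.65e-13). The further probe set of Egln3 was called lower too, with log2 fold changes of −1.66 with DAPT, −1.53 with U0126, −3.27 with TAE226 and −2.63 with PP2. Egln1, the main hydroxylase in oxygenated cells, had signals of 1273 to 1714 over all arrays. It was lower with TAE226 (log2 −0.35, adjusted p = 9e-05) and PP2 (−0.23, adjusted p = 0.00128) and was not called with DAPT (−0.08) or U0126 (−0.01). A dimmer probe set of Egln1 was called neither with TAE226 (−0.14, adjusted p = 0.426) nor with PP2 (−0.05, adjusted p = 0.761), and the mean of its probe sets lost the PP2 call (−0.14, adjusted p = 0.0886).

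For both α-subunit genes the probe sets did not all agree. Epas1 signals were 3460, 3592 and 3616 with DAPT, 5048, 5478 and 5158 with U0126, 2569, 2671 and 2526 with TAE226 and 2886, 2715 and 2904 with PP2, against 3004, 2839 and 2688 with vehicle. U0126 arrays stood above the others, DAPT arrays were second, PP2 arrays overlapped vehicle, and TAE226 arrays lay just below vehicle. Epas1, which encodes HIF2α, rose 1.84-fold with U0126 (log2 0.88, SE 0.05, adjusted p = 1.08e-09) and 1.25-fold with DAPT (log2 0.32, SE 0.05, adjusted p = 0.000174), a call that ended at 0.19 (adjusted p = 0.207) when arrays were centred on their medians. A dimmer probe set of Epas1 gave 0.80 with U0126, −0.30 with DAPT and −0.83 with PP2, of which the first and the last were called. Hif1a signals were 4217, 3944 and 3934 with DAPT, 4173, 4340 and 3865 with U0126, 3209, 3122 and 2999 with TAE226 and 3148, 3251 and 3313 with PP2, against 4808, 4605 and 4868 with vehicle. Every inhibitor's arrays lay below vehicle, those of TAE226 and PP2 lowest. Hif1a was lower by −0.24 with DAPT, −0.21 with U0126, −0.61 with TAE226 and −0.56 with PP2 on the log2 scale (adjusted p = 0.00216, 0.00474, 2.51e-07 and 1.91e-07). Its probe sets disagreed in direction. A dimmer one was called higher with DAPT (0.65), U0126 (0.75), TAE226 (1.14) and PP2 (1.75), a further one was called lower with U0126 (−0.26) and PP2 (−0.31) alone, and the mean of the gene's probe sets gave 0.62 with DAPT, 0.36 with U0126, 0.21 with TAE226 and 0.32 with PP2, of which the DAPT value was called. Its direction is therefore not settled by these arrays.

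Hexokinase 2, which traps glucose in the cell by phosphorylating it, had the greatest fold change of the 11 glycolytic enzymes against vehicle. Hk2 signals were 538, 505 and 600 with DAPT, 1227, 1389 and 1268 with U0126, 467, 466 and 467 with TAE226 and 382, 357 and 361 with PP2, against 1198, 1096 and 1008 with vehicle. The groups did not overlap, with U0126 highest, vehicle next, and DAPT, TAE226 and PP2 in falling order. Hk2 fell 2.01-fold with DAPT (log2 −1.01, SE 0.08, adjusted p = 5.82e-08), 2.35-fold with TAE226 (log2 −1.23, SE 0.08, adjusted p = 9.02e-09) and 2.99-fold with PP2 (log2 −1.58, SE 0.08, adjusted p = 7.57e-11). With U0126 it was 1.18-fold higher (log2 0.24, adjusted p = 0.0267), a call lost without U0126 replicate 2 (0.18, adjusted p = 0.119), vehicle replicate 2 (0.24, adjusted p = 0.0618) or vehicle replicate 3 (0.17, adjusted p = 0.124), and at 0.15 (adjusted p = 0.344) with arrays centred on their medians. Hexokinase 1, the form found in most tissues, was higher with U0126 (0.64, adjusted p = 5.15e-08) and with DAPT (0.23, adjusted p = 0.0028), the DAPT call ending at 0.10 (adjusted p = 0.53) after centring. It was not called with TAE226 (−0.05) or PP2 (−0.06), though a dimmer probe set of Hk1 was called lower with PP2 (−0.52) and was not called with DAPT (0.16).

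Phosphofructokinase, which sets the pace of glycolysis, is encoded here by Pfkp, the platelet form, and Pfkl, the liver form. Pfkp signals were 1888, 1797 and 1885 with DAPT, 2741, 2800 and 2779 with U0126, 1415, 1260 and 1250 with TAE226 and 1372, 1337 and 1309 with PP2, against 2775, 2828 and 2492 with vehicle. U0126 and vehicle arrays overlapped at the top, DAPT arrays lay below, and TAE226 and PP2 arrays overlapped at the bottom. Pfkp fell 2.06-fold with TAE226 (log2 −1.04, SE 0.06, adjusted p = 2.34e-09), 2.01-fold with PP2 (log2 −1.01, SE 0.06, adjusted p = 5.15e-10) and 1.45-fold with DAPT (log2 −0.54, SE 0.06, adjusted p = 2.96e-06). The dimmest further probe set of Pfkp gave −0.13 with DAPT, −0.15 with TAE226 and −0.16 with PP2, none called. Pfkl was lower with TAE226 (−0.65), PP2 (−0.54) and U0126 (−0.23), and was not called with DAPT (−0.07). The U0126 call of Pfkl was lost without U0126 replicate 1 (−0.24, adjusted p = 0.0637), U0126 replicate 2 (−0.26, adjusted p = 0.0508), U0126 replicate 3 (−0.20, adjusted p = 0.112), vehicle replicate 1 (−0.21, adjusted p = 0.104) or vehicle replicate 3 (−0.22, adjusted p = 0.0921). The mean of the probe sets of Pfkl was not called lower with PP2 (−0.14, adjusted p = 0.2) or U0126 (−0.10, adjusted p = 0.412), and its further probe sets were not called with TAE226 (−0.19 and −0.13).

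Triose phosphate isomerase, which interconverts the products of sugar splitting, fell with 3 inhibitors. Tpi1 signals were 6546, 7133 and 6817 with DAPT, 8808, 8608 and 8248 with U0126, 5219, 5597 and 4997 with TAE226 and 4422, 4575 and 4487 with PP2, against 9342, 9049 and 9390 with vehicle. Vehicle was highest, and U0126, DAPT, TAE226 and PP2 followed without overlap. Tpi1 fell 2.06-fold with PP2 (log2 −1.04, SE 0.05, adjusted p = 5.21e-11), 1.76-fold with TAE226 (log2 −0.81, SE 0.05, adjusted p = 6.64e-09) and 1.36-fold with DAPT (log2 −0.44, SE 0.05, adjusted p = 5.07e-06), and was not called with U0126 (log2 −0.11, adjusted p = 0.0867), where a further probe set of Tpi1 was called lower (−0.16, adjusted p = 0.0379). Aldolase C, the brain-type enzyme that splits the sugar, went against it with PP2. Aldoc signals were 3297, 3295 and 3326 with DAPT, 2026, 2098 and 2099 with U0126, 2457, 2404 and 2382 with TAE226 and 5749, 5712 and 6263 with PP2, against 3596, 3630 and 3518 with vehicle. PP2 arrays stood above all others, vehicle and DAPT arrays came next, and TAE226 and U0126 arrays were lowest, with no overlap between groups. Aldoc rose 1.65-fold with PP2 (log2 0.72, SE 0.05, adjusted p = 1.33e-09) and fell 1.73-fold with U0126 (log2 −0.79, SE 0.05, adjusted p = 7.09e-10) and 1.48-fold with TAE226 (log2 −0.57, SE 0.05, adjusted p = 1.16e-07). Aldoa, the muscle-type aldolase, was lower with TAE226 (−0.46) and DAPT (−0.27) and not called with U0126 (0.16) or PP2 (0.01). The dimmest of 4 further probe sets of Aldoa gave −0.01 with DAPT and 0.01 with TAE226, neither called, and was called higher with PP2 (0.31, adjusted p = 0.0473).

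In the lower part of the pathway, phosphoglycerate kinase 1 (Pgk1), the first step that yields ATP, was lower with TAE226 (−0.59), PP2 (−0.54) and DAPT (−0.33), with signals of 10094 to 17275 over all arrays. It was not called with U0126 (−0.09), where a further probe set of Pgk1 was called lower (−0.99, adjusted p = 0.00204). Phosphoglycerate mutase 1 (Pgam1) was lower with TAE226 (−0.53) and PP2 (−0.27), the PP2 call being lost without vehicle replicate 1 (−0.24, adjusted p = 0.0666) or vehicle replicate 2 (−0.22, adjusted p = 0.077). Pyruvate kinase (Pkm) was lower with TAE226 (−0.35) and DAPT (−0.30). The TAE226 call of Pkm was lost without TAE226 replicate 1 (−0.29, adjusted p = 0.057) or vehicle replicate 3 (−0.25, adjusted p = 0.0683), and the DAPT call without DAPT replicate 2 (−0.23, adjusted p = 0.124), vehicle replicate 1 (−0.31, adjusted p = 0.0506) or vehicle replicate 3 (−0.21, adjusted p = 0.127). Lactate dehydrogenase A, which turns pyruvate into lactate and has 7 matches in the promoter shown above, followed Aldoc rather than Pgk1. Ldha signals were 15286, 14402 and 14481 with DAPT, 14272, 15102 and 13288 with U0126, 11468, 12381 and 12720 with TAE226 and 17819, 18506 and 18032 with PP2, against 16166, 15496 and 16830 with vehicle. PP2 arrays were highest and TAE226 arrays lowest, with DAPT and U0126 arrays overlapping between vehicle and TAE226. Ldha fell 1.33-fold with TAE226 (log2 −0.41, SE 0.06, adjusted p = 4.44e-05). It was 1.12-fold higher with PP2 (log2 0.17, SE 0.06, adjusted p = 0.023), which turned to −0.05 (adjusted p = 0.658) with arrays centred on their medians and was lost without PP2 replicate 2 (0.15, adjusted p = 0.0752), vehicle replicate 1 (0.17, adjusted p = 0.0539) or vehicle replicate 2 (0.14, adjusted p = 0.098). With U0126 it was 1.14-fold lower (log2 −0.19, SE 0.06, adjusted p = 0.0158), a call lost without U0126 replicate 3 (−0.14, adjusted p = 0.0816) or vehicle replicate 3 (−0.16, adjusted p = 0.0621).

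Gapdh had no probe set of its own outside the array's controls, so its 3 control probe sets, at the 3′ end, the 5′ end and the middle, were fitted after the data had been seen. They gave log2 fold changes of −0.48, −0.52 and −0.54 with DAPT, −0.54, −0.57 and −0.63 with TAE226, and −0.58, −0.67 and −0.69 with PP2, all past the threshold. With U0126 they gave 0.00, −0.02 and −0.01, none past it. Gapdh, often used as a loading reference, was therefore lower in the same 3 groups as Tpi1 and Pgk1.

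**Figure D3:**
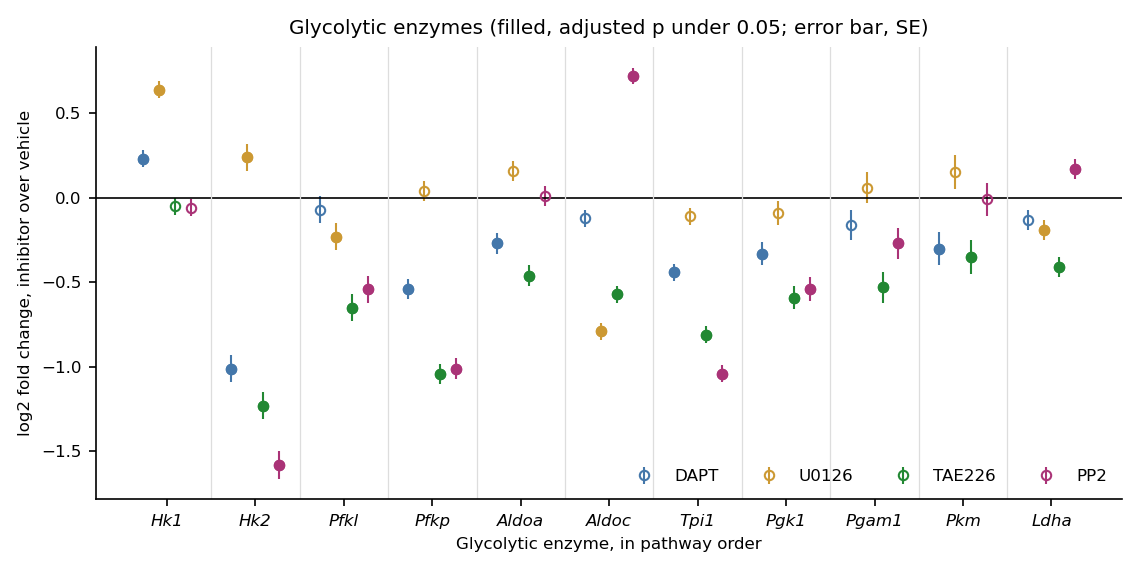
Log2 fold change against vehicle (vertical axis, with bars of 1 SE) of the 11 glycolytic enzymes tested, in pathway order from left to right, for each inhibitor. Points are filled where the adjusted p is under 0.05. With PP2, Tpi1 (−1.04) and Hk2 (−1.58) lie far to the low side while Aldoc (0.72) lies to the high side, and with U0126 Hk1 (0.64) and Aldoc (−0.79) lie at opposite ends.

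Among 5 tested genes of glucose transport and glycolytic control, 4 were lower with TAE226, 3 with PP2 and 1 with DAPT, and 1 was higher with U0126. Of all genes, 15.9% were lower with TAE226, 26.9% with PP2 and 17.5% with DAPT, and 19.4% were higher with U0126. Slc2a1, the main glucose transporter of epithelial tumour cells, had signals of 4658 to 5576 with TAE226 and 4783 to 5201 with PP2, against 7210 to 8673 with vehicle. It fell 1.55-fold with TAE226 (log2 −0.64, SE 0.07, adjusted p = 5.9e-06) and 1.6-fold with PP2 (log2 −0.68, SE 0.07, adjusted p = 7.77e-07). Pdk1 signals were 1636, 1782 and 1818 with DAPT, 1555, 1619 and 1985 with U0126, 1097, 828 and 876 with TAE226 and 981, 898 and 989 with PP2, against 2071, 2102 and 1558 with vehicle. Pdk1 encodes a kinase that keeps pyruvate out of mitochondrial oxidation. TAE226 and PP2 arrays lay below all others, which overlapped. Pdk1 fell 2.04-fold with TAE226 (log2 −1.03, SE 0.12, adjusted p = 7.02e-06) and 1.98-fold with PP2 (log2 −0.99, SE 0.12, adjusted p = 3.46e-06). A related kinase, Pdk3, was lower with TAE226 (−0.51, adjusted p = 0.00873), a call lost without TAE226 replicate 3 (−0.38, adjusted p = 0.0552).

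Pfkfb3 makes the sugar bisphosphate that activates phosphofructokinase. Pfkfb3 signals were 148, 96.4 and 164 with DAPT, 398, 318 and 435 with U0126, 105, 140 and 81.1 with TAE226 and 143, 163 and 163 with PP2, against 266, 229 and 154 with vehicle. U0126 arrays stood above all others, TAE226 arrays lay below vehicle, and DAPT and PP2 arrays overlapped vehicle. Pfkfb3 rose 1.8-fold with U0126 (log2 0.85, SE 0.24, adjusted p = 0.00899), a call lost without vehicle replicate 3 (0.62, adjusted p = 0.053), and fell 1.99-fold with TAE226 (log2 −0.99, SE 0.24, adjusted p = 0.0046). With DAPT it was 1.59-fold lower (log2 −0.67, SE 0.24, adjusted p = 0.04), lost without DAPT replicate 1 (−0.75, adjusted p = 0.0505), DAPT replicate 2 (−0.44, adjusted p = 0.195), vehicle replicate 1 (−0.50, adjusted p = 0.168) or vehicle replicate 2 (−0.61, adjusted p = 0.109). The mean of its probe sets passed the threshold with none of DAPT (−0.31), U0126 (0.32) and TAE226 (−0.61). Pfkfb4, a relative, was lower with PP2 (−0.49, adjusted p = 0.027), a call lost without PP2 replicate 1 (−0.49, adjusted p = 0.0573), PP2 replicate 3 (−0.40, adjusted p = 0.1), vehicle replicate 1 (−0.47, adjusted p = 0.0694) or vehicle replicate 3 (−0.42, adjusted p = 0.0923).

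The 6 genes of secreted factors and pH control were lower in 5 cases with DAPT, 3 with U0126, 6 with TAE226 and 5 with PP2. Of all genes, 17.5% were lower with DAPT, 21.3% with U0126, 15.9% with TAE226 and 26.9% with PP2. The median log2 fold change of these 6 genes was −0.96 with DAPT, −0.52 with U0126, −1.81 with TAE226 and −2.18 with PP2 (−2.17 with the dim member held at its bound). Car9 signals were 585, 713 and 735 with DAPT, 849, 749 and 833 with U0126, 335, 366 and 413 with TAE226 and 193, 190 and 139 with PP2, against 1539, 1495 and 1471 with vehicle. Car9 encodes a carbonic anhydrase on the cell surface that is widely used as a marker of hypoxic tumour cells. All 5 groups were apart from each other, with vehicle highest, then U0126, DAPT, TAE226 and PP2. Car9 fell 2.23-fold with DAPT (log2 −1.15, SE 0.12, adjusted p = 1.44e-06), 1.86-fold with U0126 (log2 −0.89, SE 0.12, adjusted p = 1.7e-05), 4.06-fold with TAE226 (log2 −2.02, SE 0.12, adjusted p = 3.6e-09) and 8.72-fold with PP2 (log2 −3.12, SE 0.12, adjusted p = 3.5e-12).

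Car12, another surface carbonic anhydrase, took a different course. Car12 signals were 2550, 2365 and 2792 with DAPT, 1531, 1595 and 1596 with U0126, 1471, 1129 and 1472 with TAE226 and 2929, 3086 and 2926 with PP2, against 2604, 2495 and 2824 with vehicle. U0126 and TAE226 arrays lay below the rest without overlapping each other, DAPT arrays overlapped vehicle, and PP2 arrays lay above vehicle. Car12 fell 1.68-fold with U0126 (log2 −0.75, SE 0.09, adjusted p = 4.12e-06) and 1.96-fold with TAE226 (log2 −0.97, SE 0.09, adjusted p = 4.46e-07), and was not called with PP2 (log2 0.18, adjusted p = 0.108) or DAPT (−0.04). The mean of its probe sets was called with neither U0126 (−0.33, adjusted p = 0.285) nor TAE226 (−0.55, adjusted p = 0.0799).

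Vegfa, the growth factor for blood vessels, was lower with 3 inhibitors. Vegfa signals were 806, 810 and 1090 with DAPT, 1210, 1052 and 1479 with U0126, 465, 542 and 497 with TAE226 and 435, 353 and 417 with PP2, against 1665, 1618 and 1281 with vehicle. TAE226 and PP2 arrays were lowest and apart, DAPT arrays lay below vehicle, and U0126 arrays overlapped vehicle. Vegfa fell 1.69-fold with DAPT (log2 −0.76, SE 0.14, adjusted p = 0.000477), 3.02-fold with TAE226 (log2 −1.59, SE 0.14, adjusted p = 2.87e-07) and 3.78-fold with PP2 (log2 −1.92, SE 0.14, adjusted p = 6.63e-09), and was not called with U0126 (log2 −0.29). A dimmer probe set of Vegfa was called with PP2 alone (−1.38), and gave −0.24 with DAPT and −0.89 with TAE226. The mean of its probe sets was not called with DAPT (−0.50, adjusted p = 0.148).

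Stc2, a secreted glycoprotein hormone, was lower with all 4 inhibitors. Stc2 signals were 175, 147 and 156 with DAPT, 290, 284 and 223 with U0126, 85.5, 108 and 113 with TAE226 and 136, 98.9 and 103 with PP2, against 612, 611 and 587 with vehicle. Vehicle arrays stood above all others, U0126 arrays came next, then DAPT, and TAE226 and PP2 arrays overlapped. Stc2 fell 3.79-fold with DAPT (log2 −1.92, SE 0.15, adjusted p = 6.54e-08), 2.29-fold with U0126 (log2 −1.19, SE 0.15, adjusted p = 1.08e-05), 5.95-fold with TAE226 (log2 −2.57, SE 0.15, adjusted p = 3.88e-09) and 5.41-fold with PP2 (log2 −2.44, SE 0.15, adjusted p = 1.2e-09). The 2 dimmer probe sets of Stc2 changed less, with −1.21 and −0.91 with DAPT, −0.50 and −0.43 with U0126, −1.48 and −0.42 with TAE226 and −1.30 and −0.62 with PP2, of which −0.43 and −0.42 were not called. Adm signals were 110, 151 and 123 with DAPT, 587, 677 and 820 with U0126, 103, 94 and 74.3 with TAE226 and 27.6, 53 and 49.3 with PP2, against 497, 518 and 366 with vehicle. Adm encodes adrenomedullin, a peptide that widens blood vessels. U0126 arrays were highest, vehicle arrays next, and DAPT, TAE226 and PP2 arrays followed without overlap. Adm fell 3.58-fold with DAPT (log2 −1.84, SE 0.23, adjusted p = 1.19e-05) and 5.08-fold with TAE226 (log2 −2.35, SE 0.23, adjusted p = 1.15e-06). With PP2 every array was below its median, so the fall was at least 5.33-fold (adjusted p = 2.52e-09). With U0126 the probe set used was not called (log2 0.60, adjusted p = 0.0503), while a further one was called higher (0.91, adjusted p = 0.0267). The cytokine gene Mif, with signals of 8746 to 15362, was lower with DAPT (−0.49), TAE226 (−0.47) and PP2 (−0.65) and was not called with U0126 (0.07). For the mean of its probe sets, Mif lost the TAE226 call (−0.65, adjusted p = 0.159) and was called lower with U0126 (−1.02, adjusted p = 0.0238).

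**Figure D4:**
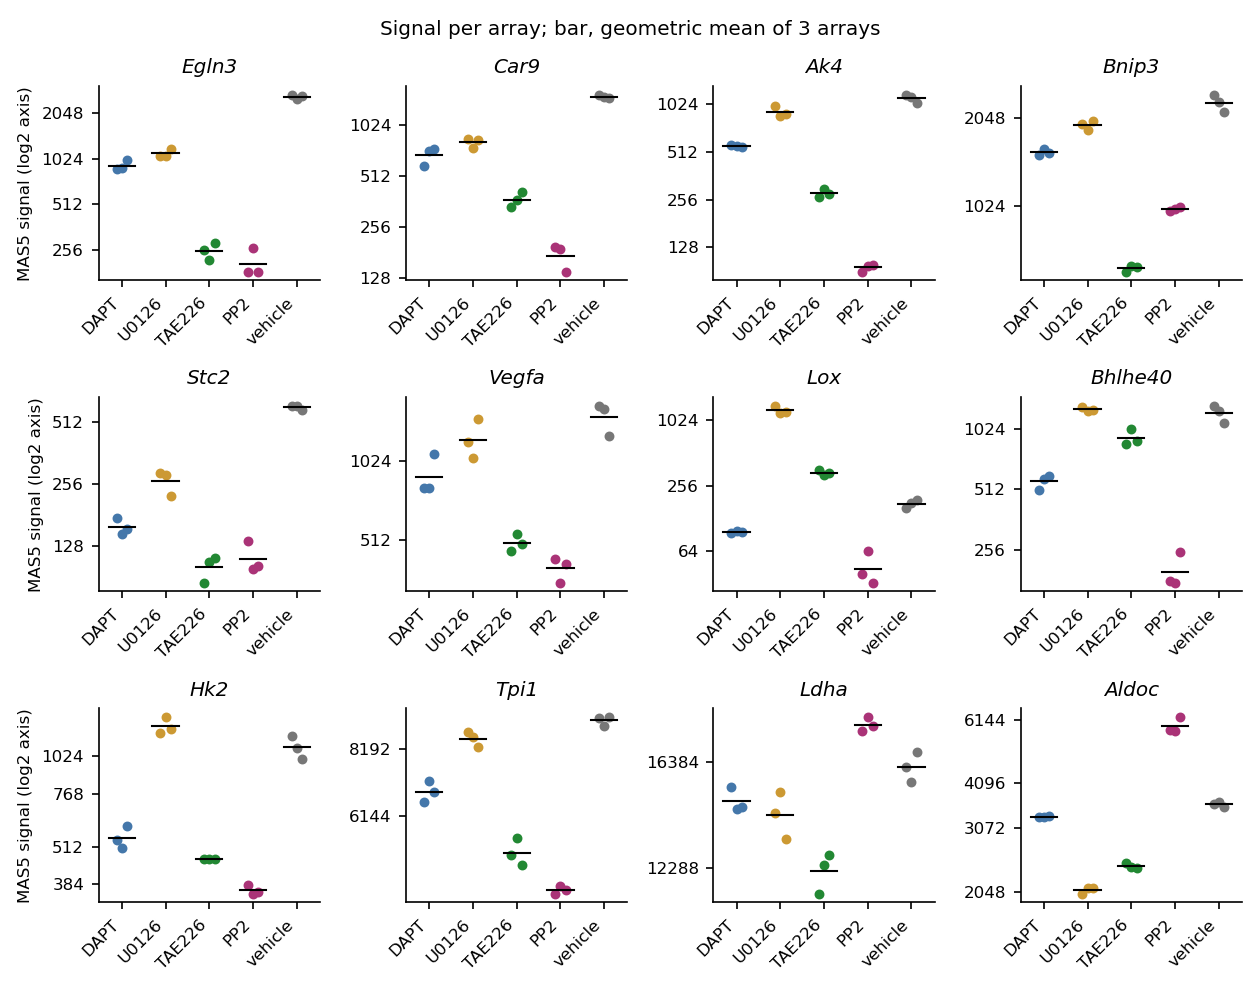
MAS5 signal (vertical axis, log scale) of 12 genes on each of the 15 arrays (points), with the geometric mean of each group as a bar, inhibitors left of vehicle. In the Egln3, Car9, Ak4 and Stc2 panels every inhibitor array lies below every vehicle array, whereas in the Lox panel U0126 and TAE226 arrays lie above vehicle and in the Aldoc panel PP2 arrays do.

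The 3 tested genes of mitochondria and mitophagy were lower with DAPT, TAE226 and PP2, where 17.5%, 15.9% and 26.9% of all genes were. Bnip3 signals were 1528, 1605 and 1559 with DAPT, 1951, 1867 and 2007 with U0126, 610, 637 and 630 with TAE226 and 985, 997 and 1014 with PP2, against 2462, 2331 and 2148 with vehicle. Bnip3 encodes a mitophagy receptor, and its promoter is shown above. The 5 groups did not overlap, with vehicle highest and TAE226, rather than PP2, lowest. Bnip3 fell 1.48-fold with DAPT (log2 −0.56, SE 0.06, adjusted p = 9.06e-07), 1.19-fold with U0126 (log2 −0.25, SE 0.06, adjusted p = 0.00193), 3.69-fold with TAE226 (log2 −1.88, SE 0.06, adjusted p = 3.34e-12) and 2.31-fold with PP2 (log2 −1.21, SE 0.06, adjusted p = 2.91e-11). Ak4 signals were 566, 560 and 549 with DAPT, 998, 864 and 891 with U0126, 264, 300 and 276 with TAE226 and 89.9, 97.7 and 99.5 with PP2, against 1172, 1131 and 1043 with vehicle. Ak4 encodes a mitochondrial adenylate kinase. Again no groups overlapped, and here PP2 arrays were lowest. Those 3 signals lay only just above the medians of their arrays (86.6, 91 and 79), so folds of Ak4 with PP2 are limited by weak signal. Ak4 fell 2-fold with DAPT (log2 −1.0, SE 0.08, adjusted p = 1.12e-07), 3.99-fold with TAE226 (log2 −1.99, SE 0.08, adjusted p = 7.5e-11) and 11.7-fold with PP2 (log2 −3.54, SE 0.08, adjusted p = 3.75e-14). With U0126 it was 1.22-fold lower (log2 −0.28, SE 0.08, adjusted p = 0.0127), a call lost without U0126 replicate 2 (−0.24, adjusted p = 0.0596) or vehicle replicate 1 (−0.25, adjusted p = 0.0613), and the mean of its probe sets gave 0.09 with U0126 and −0.29 with DAPT (adjusted p = 0.572). Higd1a, a stabiliser of the respiratory chain, was lower with DAPT (−0.38), TAE226 (−0.56) and PP2 (−0.63). Its further probe sets gave −0.08 to 0.31 in those comparisons, none called, so its calls come from the brightest probe set alone.

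All 5 genes of collagen modification were lower with PP2, where 26.9% of all genes were. With DAPT 3 were lower and 0 higher, where 17.5% and 16.8% of all genes were. With U0126 0 were lower and 1 higher (21.3% and 19.4% of all genes), and with TAE226 2 and 1 (15.9% and 15.0%). Prolyl and lysyl hydroxylases modify collagen chains inside the cell, and lysyl oxidase (Lox) cross-links the fibres outside it. P4ha1 signals were 523, 515 and 503 with DAPT, 548, 631 and 645 with U0126, 328, 323 and 345 with TAE226 and 160, 168 and 190 with PP2, against 589, 581 and 567 with vehicle. PP2 arrays were lowest, TAE226 arrays next, DAPT arrays just below vehicle, and U0126 arrays overlapped vehicle. P4ha1, a collagen prolyl hydroxylase, fell 1.74-fold with TAE226 (log2 −0.80, SE 0.09, adjusted p = 2.85e-06) and 3.36-fold with PP2 (log2 −1.75, SE 0.09, adjusted p = 5.47e-11). Its relative P4ha2 was lower with PP2 alone (−0.58, adjusted p = 0.0012). Plod2 signals were 1922, 1842 and 1792 with DAPT, 3297, 3116 and 3327 with U0126, 3008, 3327 and 3051 with TAE226 and 1383, 1321 and 1402 with PP2, against 3256, 3181 and 3349 with vehicle. PP2 arrays were lowest and DAPT arrays next, and U0126, TAE226 and vehicle arrays overlapped. Plod2, a lysyl hydroxylase, fell 1.76-fold with DAPT (log2 −0.82, SE 0.05, adjusted p = 4.87e-09) and 2.38-fold with PP2 (log2 −1.25, SE 0.05, adjusted p = 9.22e-12), and gave −0.01 with U0126 and −0.06 with TAE226.

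Plod1 signals were 226, 259 and 289 with DAPT, 409, 411 and 369 with U0126, 197, 220 and 328 with TAE226 and 212, 243 and 147 with PP2, against 422, 380 and 379 with vehicle. U0126 and vehicle arrays of this lysyl hydroxylase overlapped and lay above those of DAPT, TAE226 and PP2, which overlapped each other. Plod1 fell 2-fold with PP2 (log2 −1.0, SE 0.19, adjusted p = 0.000246) and was 1.63-fold lower with TAE226 (log2 −0.70, SE 0.19, adjusted p = 0.00852) and 1.53-fold lower with DAPT (log2 −0.62, SE 0.19, adjusted p = 0.0165). The DAPT call was lost without DAPT replicate 1 (−0.52, adjusted p = 0.069) or vehicle replicate 1 (−0.57, adjusted p = 0.0578), and no call held for the mean of its probe sets (−0.55 with PP2, −0.50 with TAE226 and −0.69 with DAPT). Lox signals were 94, 96.5 and 95.8 with DAPT, 1398, 1208 and 1230 with U0126, 353, 318 and 338 with TAE226 and 38.7, 63.1 and 32.5 with PP2, against 159, 175 and 187 with vehicle. The 5 groups were apart, with U0126 highest, TAE226 next and still above vehicle, and DAPT and PP2 below vehicle. Lox rose 7.35-fold with U0126 (log2 2.88, SE 0.18, adjusted p = 1.77e-09) and 1.94-fold with TAE226 (log2 0.95, SE 0.18, adjusted p = 0.000723) and fell 1.82-fold with DAPT (log2 −0.86, SE 0.18, adjusted p = 0.00146). With PP2 all arrays were below their medians, and the fall was at least 2.03-fold (adjusted p = 9.29e-08). A further probe set of Lox was called higher with U0126 (4.18) and TAE226 (2.21) and was not called with DAPT (−0.07) or PP2 (−0.19).

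Of the 6 nuclear and stress regulators tested, 5 were lower with DAPT, 3 with U0126 and 5 with TAE226, and with PP2 4 were lower and 1 higher. Of all genes, 17.5% were lower with DAPT, 21.3% with U0126 and 15.9% with TAE226, and with PP2 26.9% were lower and 25.9% higher. Ankrd37 signals were 101, 79.5 and 120 with DAPT, 151, 151 and 221 with U0126, 61.1, 60.3 and 91.4 with TAE226 and 74.2, 78.3 and 57.5 with PP2, against 372, 218 and 306 with vehicle. Ankrd37 encodes an ankyrin repeat protein and its promoter, with 4 matches, is shown above. Vehicle arrays were highest, 1 U0126 array reached into their range, and DAPT, TAE226 and PP2 arrays lay below. Ankrd37 fell 2.95-fold with DAPT (log2 −1.56, SE 0.25, adjusted p = 0.000128) and 4.2-fold with TAE226 (log2 −2.07, SE 0.25, adjusted p = 9.13e-06), and at least 3.42-fold with PP2, where all arrays were below their medians (adjusted p = 2.74e-06). Only 1 of the 3 TAE226 arrays exceeded its median, so the TAE226 fold is limited by weak signal too. Mean signals were 70.9 with TAE226 and 70 with PP2. With U0126 it was 1.71-fold lower (log2 −0.77, SE 0.25, adjusted p = 0.0206), lost without U0126 replicate 1 (−0.68, adjusted p = 0.0732), U0126 replicate 2 (−0.68, adjusted p = 0.0756), vehicle replicate 1 (−0.60, adjusted p = 0.109) or vehicle replicate 3 (−0.73, adjusted p = 0.0571).

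Ndrg1 signals were 4075, 4103 and 4519 with DAPT, 4308, 5058 and 6122 with U0126, 3395, 3158 and 3093 with TAE226 and 8976, 8064 and 9220 with PP2, against 7884, 7726 and 6328 with vehicle. Ndrg1 encodes a stress-induced protein linked to differentiation. PP2 arrays stood above vehicle, U0126 and DAPT arrays overlapped below it, and TAE226 arrays were lowest. Ndrg1 fell 1.72-fold with DAPT (log2 −0.78, SE 0.11, adjusted p = 2.41e-05), 1.42-fold with U0126 (log2 −0.51, SE 0.11, adjusted p = 0.00097) and 2.27-fold with TAE226 (log2 −1.18, SE 0.11, adjusted p = 3.78e-07). With PP2 it was 1.2-fold higher (log2 0.26, SE 0.11, adjusted p = 0.0457). That call ended at 0.05 (adjusted p = 0.821) with arrays centred on their medians, and was lost without DAPT replicate 1 (0.26, adjusted p = 0.0532), DAPT replicate 2 (0.26, adjusted p = 0.0546), DAPT replicate 3 (0.26, adjusted p = 0.0502), U0126 replicate 2 (0.26, adjusted p = 0.0544), TAE226 replicate 2 (0.26, adjusted p = 0.0546), TAE226 replicate 3 (0.26, adjusted p = 0.0523), PP2 replicate 1 (0.24, adjusted p = 0.116), PP2 replicate 3 (0.23, adjusted p = 0.134) or vehicle replicate 3 (0.16, adjusted p = 0.215). The further probe sets of Ndrg1 gave 0.23 to 0.63 with PP2, of which 3 of 4 were called higher.

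Bhlhe40 signals were 507, 579 and 599 with DAPT, 1309, 1254 and 1263 with U0126, 858, 1013 and 885 with TAE226 and 180, 177 and 252 with PP2, against 1326, 1257 and 1089 with vehicle. Bhlhe40 encodes a transcriptional repressor of the circadian clock family. U0126 and vehicle arrays overlapped, TAE226 arrays lay below them, DAPT arrays lower still and PP2 arrays lowest. Bhlhe40 fell 2.18-fold with DAPT (log2 −1.12, SE 0.12, adjusted p = 1.81e-06) and 6.1-fold with PP2 (log2 −2.61, SE 0.12, adjusted p = 2.44e-11). With TAE226 it was 1.33-fold lower (log2 −0.41, SE 0.12, adjusted p = 0.0149), lost without TAE226 replicate 1 (−0.37, adjusted p = 0.0581), TAE226 replicate 3 (−0.39, adjusted p = 0.0516) or vehicle replicate 1 (−0.35, adjusted p = 0.0668). Ddit4 signals were 11446, 11340 and 11370 with DAPT, 17814, 17705 and 17209 with U0126, 11737, 12379 and 12595 with TAE226 and 6296, 6517 and 6358 with PP2, against 16789, 15872 and 16380 with vehicle. Ddit4 encodes REDD1, which restrains the growth kinase mTORC1. U0126 arrays lay just above vehicle, DAPT and TAE226 arrays below, and PP2 arrays lowest. Ddit4 fell 1.44-fold with DAPT (log2 −0.52, SE 0.04, adjusted p = 1.34e-07), 1.34-fold with TAE226 (log2 −0.42, SE 0.04, adjusted p = 2.56e-06) and 2.56-fold with PP2 (log2 −1.35, SE 0.04, adjusted p = 5.93e-13), and was not called with U0126 (log2 0.10, adjusted p = 0.0716). The histone demethylase gene Kdm3a was lower with DAPT (−0.24), U0126 (−0.33), TAE226 (−0.49) and PP2 (−0.46). Mxi1, which encodes a MYC antagonist, passed the F-test over the 5 groups (adjusted p = 0.0317) but was called against vehicle with none of DAPT (−0.06), U0126 (0.20), TAE226 (−0.04) and PP2 (−0.12).

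FAK and Src act together at sites of cell adhesion, and their inhibitors gave similar medians over the 40 genes but differed in single genes. Of the 40, 55.0% were called between the 2 inhibitors, against 43.5% of all genes tested. Between TAE226 and PP2, 13 genes were higher and 9 lower, where 23.3% of all genes were higher and 20.2% lower. Higher with TAE226 than with PP2 were Bhlhe40 (4.58-fold, log2 2.19, SE 0.12, adjusted p = 2.9e-10), Ak4 (2.93-fold, log2 1.55, SE 0.08, adjusted p = 2.73e-10), Plod2 (2.28-fold, log2 1.19, SE 0.05, adjusted p = 2.73e-11) and Car9 (2.15-fold, log2 1.10, SE 0.12, adjusted p = 1.43e-06). The Ak4 call was lost for the mean of its probe sets (0.57, adjusted p = 0.205). Lox was at least 3.94-fold and Adm at least 1.05-fold higher with TAE226, the PP2 arrays being dim. P4ha1 (0.95), Ddit4 (0.94), Hk2 (0.35) and Tpi1 (0.23) were also higher, the Tpi1 call ending at 0.19 (adjusted p = 0.142) with arrays centred on their medians. Lower with TAE226 than with PP2 were Ndrg1 (2.72-fold, log2 −1.44, SE 0.11, adjusted p = 1.14e-08), Aldoc (2.44-fold, log2 −1.29, SE 0.05, adjusted p = 2.08e-12), Car12 (2.21-fold, log2 −1.15, SE 0.09, adjusted p = 2.1e-08) and Bnip3 (1.6-fold, log2 −0.67, SE 0.06, adjusted p = 5.99e-08). Ldha (−0.57) and Aldoa (−0.46) were lower as well. Egln3 (log2 0.28, SE 0.12), Stc2 (−0.14, SE 0.15) and Pdk1 (−0.04, SE 0.12) were not called between the 2 inhibitors, which does not show that they act alike. The dose of each agent is not given, so these differences cannot be told apart from differences in dose.

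**Figure D5:**
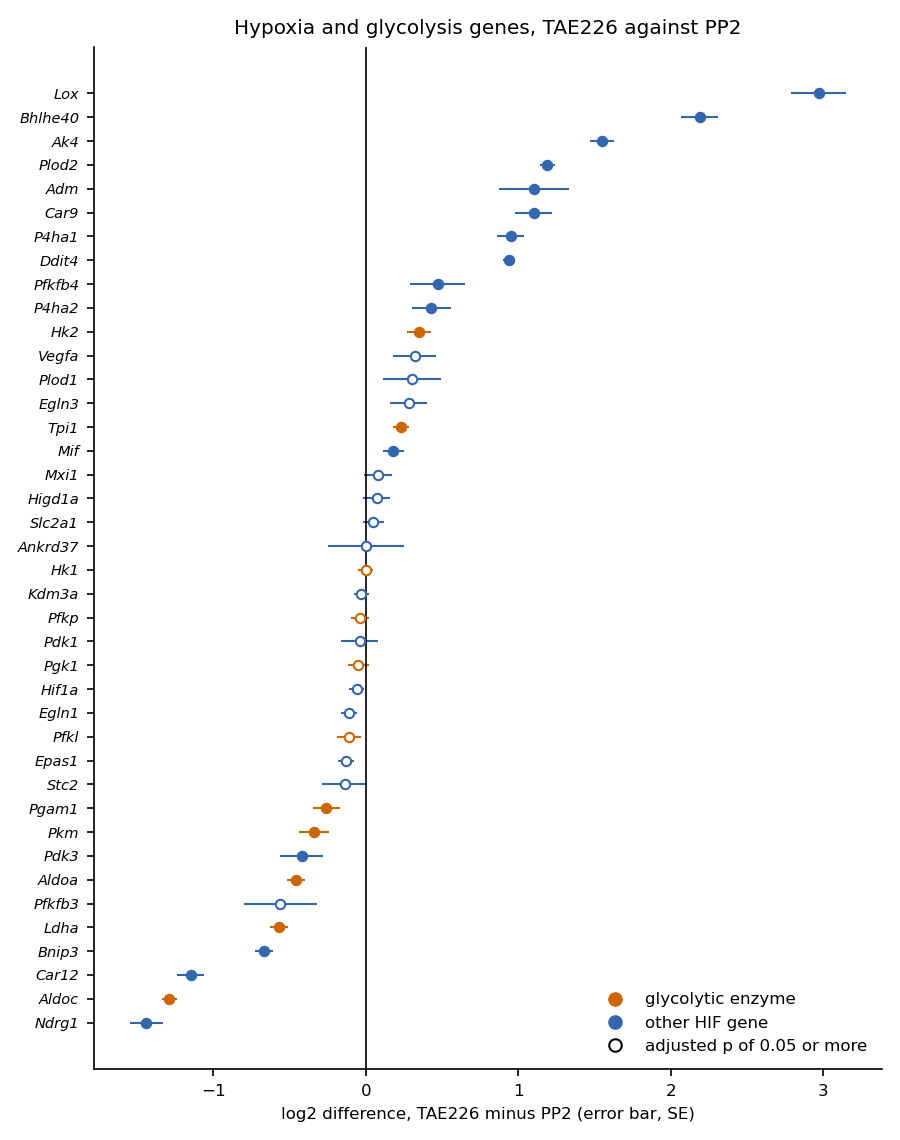
Log2 difference between TAE226 and PP2 (horizontal axis, TAE226 minus PP2, with bars of 1 SE) for each of the 40 genes (rows), filled where the adjusted p is under 0.05. Lox (2.97, a fitted value with dim PP2 arrays) and Bhlhe40 (2.19) lie farthest to the TAE226 side, and Ndrg1 (−1.44) and Aldoc (−1.29) farthest to the PP2 side.

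The 40 genes were mostly higher with U0126 than with the other inhibitors. Between U0126 and TAE226, 34 genes were higher and 1, Aldoc, was lower, with a median log2 difference of 0.60, where 17.7% of all genes were higher and 19.4% lower. With arrays centred on their medians 36 were higher and 0 lower, where 26.0% and 6.76% of all genes were. The Aldoc call ended there (−0.05, adjusted p = 0.766) and for the mean of its probe sets (−0.06, adjusted p = 0.566). Adm was 7.69-fold, Egln3 4.4-fold, Lox 3.8-fold and Pfkfb3 3.59-fold higher with U0126 (adjusted p = 6.08e-08, 1.25e-09, 4.78e-07 and 1.65e-05). Between U0126 and PP2, 33 were higher and 4 lower, with a median of 0.78, where 27.9% and 27.7% of all genes were. After centring 35 were higher and 3 lower, where 32.2% and 15.7% of all genes were. Ak4 was 9.58-fold and Bhlhe40 6.37-fold higher with U0126, Lox at least 14.9-fold and Adm at least 8.06-fold, since both were dim with PP2. The 4 genes lower with U0126 than with PP2 were Aldoc (−1.51), Car12 (−0.92), Ndrg1 (−0.77) and Ldha (−0.35), the Ldha call ending at −0.21 (adjusted p = 0.0597) after centring. Of the glycolytic enzymes, 10 of 11 were higher with U0126 than with TAE226 (median 0.59) and 8 of 11 than with PP2 (median 0.33).

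By the median of the 40 genes, DAPT lay between U0126 on the high side and TAE226 and PP2 on the low side. Between DAPT and U0126, 3 genes were higher and 25 lower (median −0.32), where 23.1% and 21.6% of all genes were. Lox was 13.4-fold, Adm 5.42-fold and Pfkfb3 2.86-fold lower with DAPT than with U0126 (adjusted p = 9.35e-11, 3.45e-07 and 7.6e-05), the Pfkfb3 call being lost for the mean of its probe sets (−0.62, adjusted p = 0.138), while Car12 (0.70) and Aldoc (0.67) were higher. Between DAPT and TAE226, 25 genes were higher and 3 lower (median 0.37), where 11.4% and 11.2% of all genes were. After centring 26 were higher and 3 lower, where 13.0% and 4.79% of all genes were. The 3 lower with DAPT were Lox (−1.82), Plod2 (−0.76) and Bhlhe40 (−0.71), and Egln3 was 3.66-fold and Bnip3 2.5-fold higher (adjusted p = 1.01e-08 and 6.94e-11). Between DAPT and PP2, 26 genes were higher and 5 lower (median 0.41, or 0.32 once dim members are held at their bound), where 21.7% and 18.0% of all genes were. After centring 26 were higher and 2 lower, where 21.0% and 9.17% of all genes were. Ak4 was 5.84-fold, Egln3 4.45-fold and Car9 3.91-fold higher with DAPT than with PP2, and Ndrg1 2.07-fold and Aldoc 1.79-fold lower.

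Further HIF targets that are not in the set of 46 were called lower in a larger share than all genes with each inhibitor. The share called higher was near that of all genes. Of 23 tested, DAPT gave 4 higher and 9 lower (median log2 fold change −0.08), U0126 4 higher and 9 lower (−0.13), TAE226 3 higher and 11 lower (−0.37) and PP2 6 higher and 13 lower (−0.49). As shares these were 17.4% and 39.1% with DAPT, 17.4% and 39.1% with U0126, 13.0% and 47.8% with TAE226 and 26.1% and 56.5% with PP2, where 16.8% of all genes were higher and 17.5% lower with DAPT, 19.4% and 21.3% with U0126, 15.0% and 15.9% with TAE226, and 25.9% and 26.9% with PP2. Nampt, which encodes an enzyme of NAD synthesis, was lower with DAPT (−0.50), U0126 (−0.41), TAE226 (−1.07) and PP2 (−1.59), and the mean of its probe sets was not called with DAPT (−0.10) or U0126 (−0.23). The mitochondrial gene Fam162a was lower with DAPT (−0.64), U0126 (−0.26, or 0.04 and not called for the mean of its probe sets), TAE226 (−0.94) and PP2 (−1.33). The growth factor gene Tgfa was lower with DAPT (−0.83), TAE226 (−0.53) and PP2 (−1.83) and was not called with U0126 (0.20). The mean of the probe sets of Tgfa was not called with DAPT (−0.32, adjusted p = 0.0509) or TAE226 (−0.12, adjusted p = 0.465). Edn1, which encodes the vessel-constricting peptide endothelin, rose with DAPT (0.55), U0126 (1.75), TAE226 (1.15) and PP2 (1.89). With PP2 the greatest fitted rise of the 23 was that of Ppp1r3c (2.79, with dim vehicle arrays). Ppp1r3c signals were 224, 173 and 219 with PP2, against 32.9, 22.8 and 33.8 with vehicle. Angptl4, a secreted regulator of lipid uptake, rose with DAPT (0.99), was not called with TAE226 (−0.50) and was at least 9.87-fold lower with PP2, where it was dim. With U0126 Angptl4 was lower (−0.58, adjusted p = 0.0301), a call lost without U0126 replicate 2 (−0.47, adjusted p = 0.121), vehicle replicate 2 (−0.56, adjusted p = 0.075) or vehicle replicate 3 (−0.55, adjusted p = 0.0745).

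Of 11 regulators of HIF outside the set, DAPT gave 4 higher and 2 lower and U0126 0 higher and 3 lower. TAE226 gave 2 higher and 2 lower, and PP2 4 higher and 2 lower. Of all genes, 16.8% were higher and 17.5% lower with DAPT, and 19.4% and 21.3% with U0126. These shares were 15.0% and 15.9% with TAE226, and 25.9% and 26.9% with PP2. Os9 signals were 1059 to 1122 with DAPT and 1228 to 1295 with PP2, against 793 to 1022 with vehicle. Ep300 signals were 1551 to 1753 with DAPT and 1697 to 2009 with PP2, against 1291 to 1433 with vehicle. Siah2, a ubiquitin ligase that targets EGLN enzymes and is itself a hypoxia-induced gene, was lower with DAPT (−0.66), U0126 (−0.53), TAE226 (−0.46) and PP2 (−0.60), though the mean of its probe sets was not called with U0126 (−0.15, adjusted p = 0.405) or TAE226 (−0.30, adjusted p = 0.0925). Cited2, which competes with HIF for a coactivator, was lower with DAPT (−0.52), U0126 (−0.58) and TAE226 (−0.44, or −0.12 and not called for the mean of its probe sets). With PP2 Cited2 signals overlapped vehicle, at 4878 to 5237 against 4655 to 4994. Of 17 further genes of glycolysis and pyruvate use, DAPT gave 2 higher and 0 lower, U0126 8 higher and 1 lower, TAE226 0 higher and 1 lower and PP2 6 higher and 3 lower. These counts can be read against the same shares of all genes. The lactate transporter gene Slc16a1 was higher with U0126 (0.69) and lower with TAE226 (−0.59) and PP2 (−1.48), the first 2 calls ending at 0.61 (adjusted p = 0.255) and −0.78 (adjusted p = 0.155) for the mean of its probe sets. Pdk4, a fasting-induced kinase of the same family as Pdk1, was at least 2.02-fold lower with PP2, where it was dim, and higher with U0126 (0.69, adjusted p = 0.0149), a call lost without U0126 replicate 2 (0.53, adjusted p = 0.0823) or vehicle replicate 3 (0.58, adjusted p = 0.0613).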

How the data were processed

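RNA from 15 mammosphere samples, 3 for each of DAPT, U0126, TAE226, PP2 and vehicle, was measured on 1 Affymetrix Mouse430_2 array each, with 250 ng total RNA per sample labelled by priming from the 3′ end. The authors deposited linear signal intensities, made with Affymetrix Expression Console and MAS5 per the submitters' processing notes, which name no versions. MAS5 brings arrays to a common trimmed mean (500 here, with 2% trimmed at each end) but leaves their distributions as they are, so a change of many genes in 1 direction can be spread over the rest. Of 45101 probe sets, 64 were controls, 34945 were annotated to exactly 1 gene, 932 to several and 9160 to none. Genes were kept for testing when their probe set exceeded the array median on at least 3 of 15 arrays. A group is called dim where all 3 of its arrays fell below that mark. Its fold is then a lower bound, computed with each dim array raised to its median where its own value was lower.

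Log2 signals entered a limma 3.58.1 fit (R 4.3.3) over all 15 arrays, with a coefficient for each group, no pseudocount and variances moderated along an intensity trend (10 residual and a median of 6.10 prior degrees of freedom). P-values are two-sided, with Benjamini-Hochberg adjustment over 11458 genes and a threshold of 0.05, and all single-gene adjusted p-values come from this fit. Further probe sets were fitted likewise over all probe sets above the filter. Log2 fold changes had a median standard error of 0.0975, and precision is limited by the number of arrays. The fit was tested on simulated data. No pair of arrays had more than 2 probe sets of equal value, so none is a copy of another. Members and gene lists were chosen with earlier results of these data known, and no test was made over a list. Values on every array are given for members that passed the threshold with at least a 2-fold change and no overlap, and for at least 2 members of each role. Outside the members, some genes of each list are named, not always those with the greatest change. The probe sets of Aldoa, Tpi1, Pgk1, Adm and Ndrg1 carry the suffix that marks possible cross-hybridisation. Alternatives were 2 scalings, a pseudocount of 64, 2 filters, 2 choices of probe set, no trend, fits of only the groups compared, the replicate number as a block and leaving out each sample. Replicate numbers showed no pairing of the samples. Correlations between deviations of same-numbered samples were −0.243 to 0.202, with 6 of 30 over 0.1. Those of differently numbered samples were −0.289 to 0.267, with 12 of 60 over 0.1.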

Additional observations from a re-analysis of the deposited data

How the results depend on the processing

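Counts of the 40 genes called against vehicle stayed within 1.5 times their values under every alternative run, except that with arrays centred on their median 0 genes were higher with DAPT and 1 with PP2, and that without vehicle replicate 3 only 3 were higher with U0126. Leaving out 1 sample gave 22 to 26 lower and 2 to 3 higher with DAPT, 10 to 13 and 3 to 7 with U0126, 31 to 33 and 1 to 1 with TAE226, and 27 to 29 and 2 to 3 with PP2. Between inhibitors it gave 17 to 24 calls for TAE226 against PP2, 33 to 36 for U0126 against TAE226, 35 to 37 for U0126 against PP2, 23 to 29 for DAPT against U0126, 26 to 29 for DAPT against TAE226 and 27 to 32 for DAPT against PP2, and 38 to 39 in the F-test. With the replicate block, 24 were lower and 2 higher with DAPT, 14 and 6 with U0126, 33 and 1 with TAE226, and 29 and 2 with PP2; the block ended the calls of Pfkfb3 with DAPT (adjusted p = 0.0565) and Ndrg1 with PP2 (0.0633) and no other call against vehicle. Direction turned for Ldha with PP2 under median centring (−0.05) and, for the mean of all probe sets, for Hif1a with DAPT (0.62), U0126 (0.36), TAE226 (0.21) and PP2 (0.32), Higd1a with DAPT (0.00), Mif (−1.02) and Ak4 (0.09) with U0126, Mif between U0126 and TAE226 (−0.37), U0126 and PP2 (−0.11) and DAPT and U0126 (0.11), Plod1 in the same 3 pairs (−0.21, −0.16 and 0.02), and Lox between DAPT and PP2 (−0.04), and for Fam162a, which is no member, with U0126 (0.04). The mean of all probe sets includes dim ones, and the cause of these changes was not tested. Members counted by that mean were 19 lower and 3 higher with DAPT, 12 and 6 with U0126, 27 and 1 with TAE226, and 27 and 3 with PP2. Signals near the array median limit Adm, Lox, Ankrd37, Ak4, Stc2 and Pfkfb3 in their lowest groups.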

Other observations

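Genes of the branches that leave glycolysis and of the tricarboxylic acid cycle gave the following counts, beside which 16.8% of all genes were higher and 17.5% lower with DAPT, 19.4% and 21.3% with U0126, 15.0% and 15.9% with TAE226, and 25.9% and 26.9% with PP2. Of 13 tested genes of the pentose phosphate and serine branches, DAPT gave 1 higher and 4 lower, U0126 3 higher and 4 lower, TAE226 0 higher and 6 lower and PP2 3 higher and 7 lower. The enzymes of serine synthesis were lower with PP2, where Phgdh, the first step, gave a log2 fold change of −1.94, Psat1, the second, −1.18 and Psph, the last, −1.11 (adjusted p = 3.34e-12, 1.37e-11 and 3.17e-10, limma). With TAE226 they gave −0.62, −0.82 and −0.73, all called. With U0126 Phgdh was higher (0.58) and Psat1 (−0.67) and Psph (−0.52) lower, and with DAPT Phgdh (−0.35) and Psph (−0.46) were lower. Gpd1, which links glycolysis to glycerol, rose with DAPT (1.35) and PP2 (1.75), where the mean of its probe sets gave 0.67 (adjusted p = 0.0713). Of 15 tested genes of the tricarboxylic acid cycle, DAPT gave 1 higher and 2 lower, U0126 5 higher and 2 lower, TAE226 1 higher and 5 lower and PP2 3 higher and 5 lower, which as shares were 6.67% and 13.3% with DAPT, 33.3% and 13.3% with U0126, 6.67% and 33.3% with TAE226 and 20.0% and 33.3% with PP2. Their median log2 fold changes were −0.03 with DAPT, 0.09 with U0126, −0.05 with TAE226 and −0.06 with PP2. Ogdh, a subunit of the oxoglutarate dehydrogenase complex, was higher with DAPT (0.45), U0126 (0.83), TAE226 (0.37) and PP2 (0.55), and the DAPT and TAE226 calls ended at 0.31 and 0.12 when arrays were centred on their medians. Of 6 tested reference genes, 1 was called in each comparison with vehicle.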
